A study of Mus musculus with 4 samples.

Results

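The regions described here are stretches of open chromatin that set Th2 cells apart from 3 other T helper populations of mice given house dust mite extract, an allergen that causes an asthma-like airway inflammation. ATAC-seq, in which a transposase inserts sequencing adapters into accessible DNA, was run on Th2 cells (CD3+ CD4+ CD44+ ST2+ CD30L+), Treg cells (CD3+ CD4+ CD25hi CD30L-), other effector cells, which are memory cells outside the Th2 gate (CD3+ CD4+ CD44+ ST2- CD30L+), and naive cells (CD3+ CD4+ CD44lo CD62Lhi), all from mice treated with the allergen. Th2, Treg and other effector cells came from lung and airways at day 15. Naive cells came from the mediastinal lymph node per the protocol, although their source label reads lung and airways, so population and tissue cannot be told apart in the comparison with naive cells. Each population was sorted as 3 biological replicates of 1000 cells per the labels, and for other effector and naive cells the description field reads day 10 where the title reads day 15. The sources used here state no strain or age of the mice. The data analysed were 6 deposited lists, which cover each pairing of the populations and give position and fold of every region called different in accessibility. They hold no read counts, no replicate values and no p-values, so depth is unknown and none of the folds below has an error or a test.

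Rows of the 6 lists that overlapped by at least 1 bp were merged into 52537 regions. Members were the merged regions listed in all 3 comparisons with Th2 cells (naive, Treg and other effector) and in none of the 3 comparisons among those populations. This rule kept 1257 regions, 2.39% of all. Members were thus chosen by their listing in the deposited tables, which rests on the folds themselves, so the folds are given as a description. The rule asked for no direction. The same rule applied to Treg cells gave 635 regions and applied to naive cells gave 1418, and these sets serve below only to show where the members differ.

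Th2 cells are the T helper subset behind allergic inflammation. They are driven by the transcription factor GATA3 and secrete IL-4, IL-5 and IL-13, whose genes share a locus with Rad50, and they respond to IL-33 through its receptor ST2, the product of Il1rl1. Signals from the T cell receptor raise intracellular calcium, which activates calcineurin and moves NFAT factors into the nucleus, where they bind open regulatory DNA together with AP-1. Open chromatin marks promoters and enhancers that factors can reach, and a region open in 1 cell type but not in its relatives is a common way to find the elements peculiar to that type.

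Members that held a promoter are shown first, because there the open region can be tied to a named gene and its sequence could be read. Of the 1257 members, 103 (8.19%) overlapped a RefSeq promoter window, which spans 250 bases before a start site and 50 after it on GRCm38.p6. These windows numbered 112, from 108 genes. The 7 stretches below are the 250 bases before the start site, read 5′ to 3′ on the gene's strand. They were chosen after their folds and letters had been seen, to show 4 genes known from activated or allergic T cells and 3 better known from myeloid cells. Il2, the T cell growth factor gene, has its stretch at chr3:37125955-37126204 on the minus strand. Rcan1, which encodes a feedback inhibitor of calcineurin, has it at chr16:92400079-92400328 on the minus strand, at an internal start site. Ccl1, which encodes the ligand of the chemokine receptor CCR8, has it at chr11:82179813-82180062 on the minus strand. Plac8, a gene of the Th2 list, has it at chr5:100572206-100572455 on the minus strand. Nlrp3, an inflammasome sensor, has it at chr11:59541319-59541568 on the plus strand. Plek, which encodes the protein kinase C substrate pleckstrin of blood cells, has it at chr11:17008719-17008968 on the minus strand. Tnfaip2, a gene induced by TNF, has it at chr12:111442411-111442660 on the plus strand. Capitals mark matches, on either strand, to the motifs listed in the next paragraph.
Il2: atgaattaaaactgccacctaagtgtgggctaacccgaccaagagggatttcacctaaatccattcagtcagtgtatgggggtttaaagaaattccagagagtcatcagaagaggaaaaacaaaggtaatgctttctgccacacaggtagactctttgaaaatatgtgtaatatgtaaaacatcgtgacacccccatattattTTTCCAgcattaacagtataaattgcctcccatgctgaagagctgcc
Rcan1: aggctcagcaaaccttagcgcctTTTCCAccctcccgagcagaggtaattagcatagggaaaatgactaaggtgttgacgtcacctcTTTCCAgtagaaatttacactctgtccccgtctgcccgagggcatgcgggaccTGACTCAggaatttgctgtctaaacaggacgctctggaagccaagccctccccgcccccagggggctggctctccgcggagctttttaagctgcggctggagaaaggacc
Ccl1: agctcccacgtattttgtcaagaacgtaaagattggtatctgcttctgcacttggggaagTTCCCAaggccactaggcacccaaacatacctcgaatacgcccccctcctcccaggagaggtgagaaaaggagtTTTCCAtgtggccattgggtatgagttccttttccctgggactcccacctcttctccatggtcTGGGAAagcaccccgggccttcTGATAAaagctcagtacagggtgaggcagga
Plac8: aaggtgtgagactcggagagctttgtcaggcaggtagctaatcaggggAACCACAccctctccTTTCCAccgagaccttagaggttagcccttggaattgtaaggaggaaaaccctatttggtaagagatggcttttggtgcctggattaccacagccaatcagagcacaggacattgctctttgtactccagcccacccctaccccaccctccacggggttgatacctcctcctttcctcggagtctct
Nlrp3: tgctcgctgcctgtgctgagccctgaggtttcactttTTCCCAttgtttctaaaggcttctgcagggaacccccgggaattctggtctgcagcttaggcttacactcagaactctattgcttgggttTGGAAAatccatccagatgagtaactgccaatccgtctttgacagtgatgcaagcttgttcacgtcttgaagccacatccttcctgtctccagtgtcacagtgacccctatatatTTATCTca
Plek: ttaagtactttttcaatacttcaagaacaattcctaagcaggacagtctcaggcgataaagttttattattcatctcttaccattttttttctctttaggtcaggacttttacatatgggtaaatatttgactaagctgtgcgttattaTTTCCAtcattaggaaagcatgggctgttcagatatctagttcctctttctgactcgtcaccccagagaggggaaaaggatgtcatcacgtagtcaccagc
Tnfaip2: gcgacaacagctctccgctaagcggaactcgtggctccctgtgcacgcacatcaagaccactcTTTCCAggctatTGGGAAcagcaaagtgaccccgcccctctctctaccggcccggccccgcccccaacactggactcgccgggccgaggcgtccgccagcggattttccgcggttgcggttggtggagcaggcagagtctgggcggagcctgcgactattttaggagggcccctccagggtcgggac

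Motifs were searched on both strands of the 250 bases. For NFAT, the calcium-driven factors, the core was TGGAAA. For RBPJ, the Notch partner described below, it was TGGGAA, which differs in 1 letter, so that no stretch of 6 bases matches both on the same strand. GATA factors, which include GATA3, were searched as AGATAA and, separately, with a first letter T in place of A. RUNX factors were searched as TGTGGTT, and ETS factors as ACAGGAAGT. The E-box of basic helix-loop-helix factors was CACGTG. Motifs with open positions were AP-1 (TGANTCA), the STAT6 type, which has TTC and its reverse complement with 4 bases between them, and the PPAR type DR1 element, which repeats AGGTCA with 1 base between the copies. The Rcan1 stretch held 2 NFAT cores and 1 AP-1 match, and the member there covered all 250 bases. The Il2 stretch held 1 NFAT core, and its member likewise covered all 250 bases. The Ccl1 stretch held 2 RBPJ cores, 1 NFAT core and 1 GATA match. Each of the 7 stretches thus held an NFAT core, which is partly how they were picked. Over all 112 promoters at members, 27.7% held the NFAT core (exact 95% binomial interval 19.6% to 36.9%), against 13.9% of the 11755 promoters at any listed region and 18.6% of all 32851 promoters. The RBPJ core stood in 30.4% of promoters at members (22.0% to 39.8%), against 19.3% at any listed region and 21.6% of all. AP-1 stood in 7.14% of promoters at members (3.13% to 13.6%), against 4.22% at any listed region and 6.75% of all. These 3 shares are descriptions of letters, since promoters are not replicates and the intervals cover counting error only.

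Each of the remaining motifs stood in under 10% of the promoters at members. The STAT6 type stood in 8.93% of them, against 4.53% at any listed region and 5.85% of all promoters, and the E-box in 9.82%, against 8.83% and 6.02%. The first GATA form stood in 5.36%, against 5.14% at any listed region and 9.99% of all promoters, and the second in 5.36%, against 3.44% and 7.94%. Both GATA shares were thus below those of all promoters and above those at any listed region. The exact 95% interval of each, 1.99% to 11.3%, held all of these comparison shares, so no difference is read. RUNX stood in 3.57%, against 3.39% at any listed region and 4.40% of all promoters, and ETS in 2.68%, against 1.05% and 0.794%. The PPAR type element was found in 0 of the 112, which allows a share of up to 3.24% by the exact 95% interval, and in 3 of the 11755 promoters at any listed region. CpG dinucleotides in promoters at members had a median of 7 in 250 bases, against 17 at any listed region and 6 over all promoters. At least 10 CpG stood in 44.6% of promoters at members, 76.5% of those at any listed region and 37.8% of all. The 38 promoters at regions that set naive cells apart had a median of 4 CpG, and the 24 at regions that set Treg cells apart had 8.

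Every one of the 1257 members was more open in Th2 cells than in all 3 other populations, although the rule would have accepted the opposite. Listed and higher in Th2 cells were 6.72% of all merged regions against Treg cells, 53.2% against other effector cells and 9.67% against naive cells. Since the rule used these contrasts, nothing is read from the members' count. No merged region at all was listed as higher in other effector than in Th2 cells, so a member lower in Th2 cells than in all 3 could not have arisen. Folds are printed as the named population minus Th2 cells on the log2 scale, the sign of the deposited tables, so a negative fold means higher in Th2 cells.

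In the authors' deposited tables the median member lay at -5.78 in Treg cells relative to Th2 cells, with a range of -11.32 to -4.10. The median in the authors' deposited tables was -6.17 for other effector cells, with a range of -11.32 to -4.33. For naive cells the authors' deposited tables gave a median of -6.05 and a range of -11.49 to -3.54. Taken off the log2 scale, the medians are ratios of 54.9, 72.0 and 66.3 for Th2 cells over Treg, other effector and naive cells. They are conversions of the deposited folds. Without read counts they cannot be taken as measured ratios of accessibility. Folds of this size were usual in these lists, whose smallest entries for the same comparisons already lay 3.95, 3.46 and 3.41 from 0. Among all merged regions listed as higher in Th2 cells, the authors' deposited tables gave medians of -5.50 against Treg cells, -5.41 against other effector cells and -5.59 against naive cells. Members thus lay further from 0 than all such regions in each table, by most for other effector cells. The rule used these folds, so this is not read as a result.

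**Figure D1:**
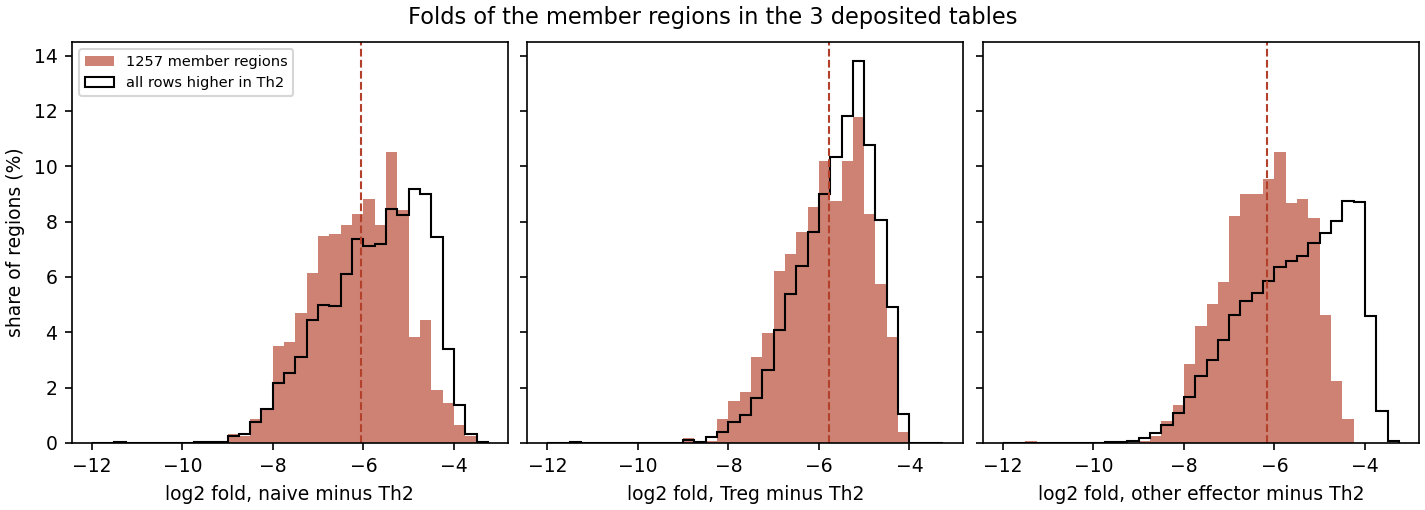
Histograms of the deposited log2 fold (horizontal axis, named population minus Th2 cells) for the 1257 members (filled) and for all rows higher in Th2 cells (outline), as a share of regions in percent (vertical axis). The dashed line is the members' median, -6.05 for naive, -5.78 for Treg and -6.17 for other effector cells in the authors' deposited tables. Members shift to the left of the outline in each panel, which is not read as a result because the rule used these folds.

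The 3 folds of a member often carried 1 number. For 1001 of the 1257 members the row had the same bounds in the 3 tables, so that differences between the other 3 populations could be read from their folds. At 599 of these (59.8%) the Treg and other effector folds lay within 0.02 of each other and the naive fold lay within 0.02 of its usual offset of -0.17 from the other effector fold. At these 599, Treg, other effector and naive cells were alike to the precision of the tables, and the 256 members with unequal bounds could not be read in this way. A further 178 (17.8%) had a Treg fold that differed, 143 (14.3%) a naive fold, 80 (7.99%) both, and 1 an other effector fold. Treg cells lay above other effector cells at 259 members and below them at 0. Over all merged regions, 46.7% were listed as higher in Treg cells than in the other effector population and 0 as lower, so this direction is that of the whole data set. Naive cells lay above their usual offset at 181 members and below it at 43, beside 33.7% of all merged regions listed as higher in naive cells than in the other effector population and 0 as lower. The rule drops every region listed among Treg, other effector and naive cells, which favours alike folds. Alike folds were also common outside the members. For regions listed against Th2 cells only in the naive and other effector tables, these folds were alike at 1350 of 1621 compared. For those listed only in the Treg and other effector tables, they were alike at 1551 of 2015. The 59.8% is therefore not read as a trait of the members. Read counts were not analysed here, and whether a shared fold goes with 0 reads in the 3 populations was not tested.

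The 178 members with a differing Treg fold were all lower in Treg than in Th2 cells, a difference the rule asks of every member. None was listed as differing between Treg cells and other effector or naive cells, since the rule excludes such regions. What follows therefore describes printed folds only. Over these 178, the authors' deposited tables gave a median of -5.14 for Treg cells, -6.78 for other effector cells and -6.96 for naive cells, each relative to Th2 cells. Treg cells lay 0.35 to 3.78 log2 units above other effector cells there, with a median of 1.36. Over the 143 members with a differing naive fold, the authors' deposited tables gave -6.05 for Treg cells, -6.05 for other effector cells and -5.17 for naive cells. Examples of an intermediate Treg fold were regions at Il13, Nlrp3, Tnfaip2, Lgals3, Ahr and Atf3. Regions at Cd244a, Ly9 and Slamf7 were examples of a naive fold nearer to Th2 cells.

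**Figure D2:**
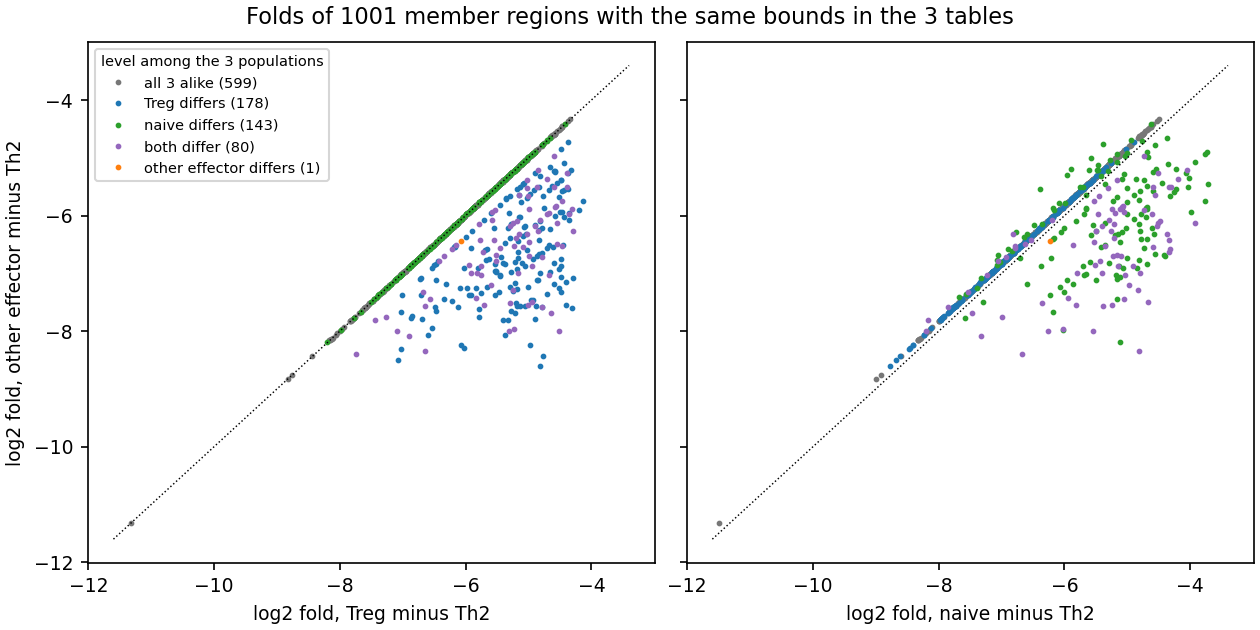
Deposited log2 folds of the 1001 members with the same bounds in the 3 tables, other effector minus Th2 (vertical axis) against Treg minus Th2 (left panel) and naive minus Th2 (right panel), 1 point per region, coloured by which population differs. The dotted line marks equal folds. The 599 regions at which the 3 populations are alike lie on a line in both panels. All 259 regions off the line on the left lie on the side of a smaller gap between Treg and Th2 cells. By the rule, no member was listed as differing among the 3 populations.

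Members just inside and just outside the rule show where the choice falls. A further 2015 merged regions were listed as differing from Th2 only in the Treg and other effector tables, and 2090 only in the naive and other effector tables, while 0 were listed against naive and Treg cells alone. All of the 2015 and all of the 2090 were higher in Th2 cells. The members with folds nearest to 0 were those assigned to Ago4, Arhgef10l, Cpn2, Bmt2 and Macf1, inside the gene at Arhgef10l and Macf1 and outside it at the others, for which the authors' deposited tables gave -3.54, -3.72, -3.73, -3.76 and -3.77 for naive relative to Th2 cells. In the 2015 regions without a naive listing the median fold in the authors' deposited tables was -5.38 for Treg relative to Th2 cells, and in the 2090 without a Treg listing it was -5.17 for naive relative to Th2 cells.

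The genes of the Th2 cytokine programme are given beside the 2.39% of all merged regions that were members. Il4 had 1 listed region, Il5 had 4 and Rad50 had 5, and none was a member. Il13, which encodes the cytokine that drives mucus production and airway hyperreactivity, had 1 member among its 6 listed regions, at chr11:53626744-53627138, outside the gene and 4382 bases from its nearest end. There the authors' deposited tables gave -4.81 for Treg cells, -6.99 for other effector cells and -7.16 for naive cells relative to Th2 cells. The Treg fold was thus 2.18 above the other effector fold, although the region was not listed as differing between those populations. All 6 Il13 regions were higher in Th2 cells than in the other effector population and 5 were higher than in naive cells, while 1 was higher than in Treg cells. The shares of all merged regions for these directions were 53.2%, 9.67% and 6.72%.

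The factor and receptor genes Gata3, Il1rl1, Pparg and Ccr8 had 0 members among 11, 18, 13 and 3 listed regions, counts from which nothing is read beside a share of 2.39% over all merged regions. Of the 11 regions of Gata3, the lineage factor, 5 were higher in Th2 cells than in the other effector population and 0 higher than in Treg or naive cells. Of the 18 regions of Il1rl1, which encodes the sort marker ST2, 16 were higher in Th2 cells than in the other effector population, 11 than in naive cells and 0 than in Treg cells. Of the 13 regions of Pparg, which encodes a lipid-sensing nuclear receptor, 11 were higher in Th2 cells than in the other effector population, 8 than in naive cells and 1 than in Treg cells. At 8 Il1rl1 regions and 6 Pparg regions both Th2 and Treg cells were listed as higher than naive cells. Over all merged regions, 6.64% were higher in Treg than in naive cells, whatever their listing in Th2 cells. The share of all regions with both listings was not computed. Ccr8, a chemokine receptor gene of Th2 and tissue Treg cells, had 0 regions listed as higher in Th2 than in any population.

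Of the other sort markers, Tnfsf8, which encodes CD30L, had 2 members among 7 listed regions. The first, inside the gene, lay at -5.23 in Treg cells, -5.23 in other effector cells and -5.40 in naive cells relative to Th2 cells in the authors' deposited tables. The second, 44744 bases from the gene, lay at -6.18, -6.17 and -6.34 for Treg, other effector and naive cells in the authors' deposited tables. CD30L marked the gate of both Th2 and other effector cells. The rule asks every member to differ between this pair of populations, so nothing is read from the separation at these 2 regions. Of the 7 Tnfsf8 regions, 3 were higher in Th2 cells than in the other effector population, beside 53.2% of all merged regions. Cd44, the memory marker shared by both gates, had 2 members among 23 regions, with folds of -7.33 and -7.64 for other effector relative to Th2 cells in the authors' deposited tables. Il2ra, which encodes the Treg sort marker CD25, had 0 members.

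Over the 32 genes of the Th2 list, 14 of 218 listed regions were members (6.42%), against 2.39% of all merged regions, and 9 genes had at least 1. The list's member medians in the authors' deposited tables were -5.38 for Treg cells, -5.59 for other effector cells and -5.76 for naive cells, nearer to 0 than the medians over all members. Its 218 regions included 20 higher in Th2 than in Treg cells, 147 higher than in other effector cells and 85 higher than in naive cells. The matching shares of all merged regions were 6.72%, 53.2% and 9.67%. Beside Il13 and Tnfsf8, the genes with members were Bhlhe40, Rbpj, Igfbp7, Plac8, Tnfsf11, Il6 and Maf. The list was drawn up with earlier results of these data known and counts as no independent evidence.

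Bhlhe40 encodes a basic helix-loop-helix repressor that T helper cells need for cytokine production, and it had 2 members among 12 listed regions. The first, chr6:108659266-108661104, spans the end of the gene with the lower coordinate and lay at -7.77 in Treg cells, -7.77 in other effector cells and -7.94 in naive cells relative to Th2 cells in the authors' deposited tables. The second, 1245 bases outside the gene's other end, lay at -4.89, -4.89 and -4.68 for Treg, other effector and naive cells in the authors' deposited tables. The region at the gene end had the larger fold of the pair in each comparison.

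Rbpj encodes the DNA-binding partner of the Notch receptors, which act upstream of Gata3 and Il4 in T helper cells. Beside it lay the group with most members, 7 within 148616 bases at chr5:53361360-53509975, between Smim20 and Rbpj. The authors' deposited tables gave folds for other effector relative to Th2 cells of -8.16 to -4.87 over these 7. The region nearest to the gene, chr5:53509304-53509975, lay 46140 bases from the nearer end of Rbpj, at -8.16 in Treg cells, -8.16 in other effector cells and -8.33 in naive cells relative to Th2 cells in the authors' deposited tables. This was among the 15 members with the largest folds. Of the 7, 2 lay within 100 kb of Rbpj and were assigned to it, and 4 lay over 100 kb from any protein-coding gene end. The Notch list as a whole had 4 members among 127 regions (3.15%), 2 of them at Rbpj and 1 each at Notch2 and Maml3. That share is near the 2.39% of all merged regions.

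Igfbp7, which encodes a secreted binding protein for insulin-like growth factors, had 1 member over its promoter, at -5.53 in Treg cells, -5.52 in other effector cells and -5.70 in naive cells relative to Th2 cells in the authors' deposited tables. Plac8, whose promoter is printed above, had 1 member there at -4.77, -5.66 and -5.83 for Treg, other effector and naive cells in the authors' deposited tables. A second Plac8 member 35962 bases away lay at -7.33, -7.32 and -7.49 for the same populations in the authors' deposited tables. The Treg fold was thus intermediate at the promoter and level with the other effector fold at the distal region. Neither region was listed as differing between those populations. Tnfsf11, which encodes RANKL, had 2 members outside the gene, and Il6 and Maf had 1 distal member each.

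The genes with most members were Itpr1 and Creb5 with 6 each, followed by Etv6, Prr5l and Tnfaip8 with 5 and App, Gas7 and Gldc with 4. Itpr1 encodes the receptor through which inositol trisphosphate releases calcium from internal stores, a step of T cell receptor signalling. Its 6 members all lay inside the gene, among 37 listed regions. They ranged from -8.76 to -6.03 in Treg cells, -8.75 to -6.03 in other effector cells and -8.92 to -6.20 in naive cells relative to Th2 cells in the authors' deposited tables. By the smallest of the 3 folds of each member, only 2 members lay further from 0 than the region chr6:108476578-108477927 in Itpr1. Rcan1, also on the T cell receptor list, had 2 members among 5 regions, and the one at the printed promoter lay at -7.20 in Treg cells, -7.20 in other effector cells and -7.37 in naive cells relative to Th2 cells in the authors' deposited tables. With members that included 1 each at Nfatc1 and Nfatc2, the T cell receptor list had 11 members among 320 regions (3.44%), in 5 of 29 genes. Of all merged regions 2.39% were members, so this share is near that of all regions.

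Creb5, which encodes a relative of the CREB and ATF factors, had 6 members among 14 listed regions, including its promoter at -7.04 in Treg cells, -7.03 in other effector cells and -7.20 in naive cells relative to Th2 cells in the authors' deposited tables. Prr5l, which encodes a partner of the mTOR complex, had 5 members among 12 regions, all inside the gene. Etv6, an ETS-family repressor gene, had 5 members among 33 regions. At Gldc, which encodes a subunit of the glycine cleavage system, all 4 listed regions were members, at -6.88 to -6.15 for Treg relative to Th2 cells in the authors' deposited tables. Of the 936 genes with a member, 64 had members as their only listed regions, and 60 of these had a single region. Gene length differs widely among these genes and long genes hold more listed regions, so the counts say nothing of a gene's rank beyond these lists.

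**Figure D3:**
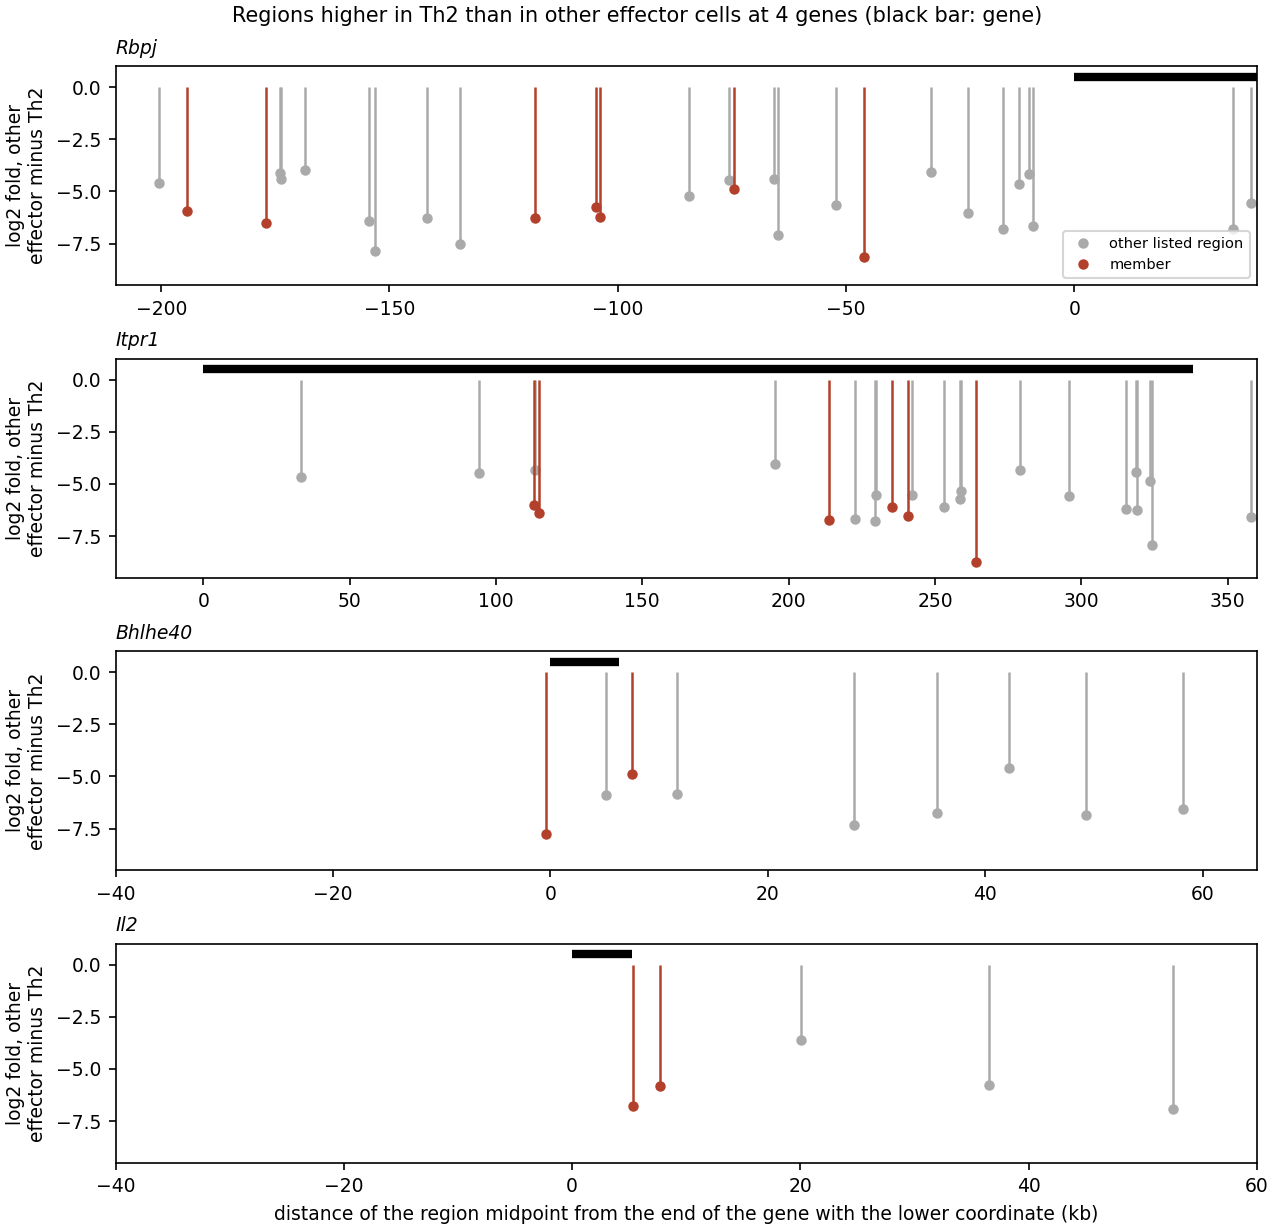
Deposited log2 folds (vertical axis, other effector minus Th2 cells) of regions at Rbpj, Itpr1, Bhlhe40 and Il2 against the distance of the region's midpoint from the end of the gene with the lower coordinate (horizontal axis, kb). Members are red, other regions listed for this comparison grey, and the black bar is the gene. The 7 members beside Rbpj lie outside the gene, and the 6 at Itpr1 lie inside it, at 113.0 to 264.2 kb.

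Il2, picked after its values were seen, had 2 members among 5 listed regions. The promoter member, chr3:37125646-37126522, lay at -6.77 in Treg cells, -6.77 in other effector cells and -6.94 in naive cells relative to Th2 cells in the authors' deposited tables. The second, 2481 bases outside the gene, lay at -5.82, -5.82 and -5.99 for Treg, other effector and naive cells in the authors' deposited tables. Treg, other effector and naive cells were alike at both. Of 30 genes known from activated T cells, gathered likewise after values were seen, 11 had a member and 19 of 169 listed regions were members (11.2%, against 2.39% of all merged regions). The list was gathered with the members known, so this share supports nothing. Those with a promoter member included Ccl1, Hlx, Gpr174 and Tbc1d4, whose products are a chemokine, a homeobox factor, a G protein-coupled receptor for lysophosphatidylserine and a Rab GTPase-activating protein. The Ccl1 member lay at -5.27 in Treg cells, -5.27 in other effector cells and -5.44 in naive cells relative to Th2 cells in the authors' deposited tables.

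Transcription factor genes outside the Th2 list are given beside the 2.39% of all merged regions that were members. The AP-1, BATF and IRF list had 8 members among 166 regions (4.82%), in 4 of 18 genes. These were Fos and Nfe2l2 with 3 each and Atf3 and Irf2 with 1. The 3 Fos members, all 20219 to 55587 bases outside the gene, lay at -7.28 to -6.09 in other effector relative to Th2 cells in the authors' deposited tables. At 2 of them both Treg and naive cells lay above other effector cells. Nfe2l2 encodes NRF2, a regulator of the oxidative stress response, and its 3 members lay at -7.79 to -4.46 in Treg relative to Th2 cells in the authors' deposited tables. The RUNX and ETS list had 11 members among 258 regions (4.26%), with 5 at Etv6, 3 at Runx1, 2 at Runx3 and 1 at Runx2. The 3 Runx1 members lay at -7.08 to -5.59 for other effector relative to Th2 cells in the authors' deposited tables.

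Other lists are read against the same 2.39% over all merged regions. The STAT and SOCS list had 4 members among 124 regions (3.23%), 2 at Socs3 and 1 each at Jak2 and Socs6, and the NF-kB list had 1 among 144 (0.694%), at Nfkb1. The TGF-beta and SMAD list had 0 members among 157 regions. Of these 157, 15 set naive cells apart, beside 1418 of all 52537 merged regions. Of the lipid list, which holds genes of fatty acid and cholesterol handling, 6 of 151 regions were members (3.97%), among them 2 at Acsl1 and 1 each at Abca1, Cd36 and Lpcat2. The Lpcat2 member lay at -7.03 in Treg cells, -7.02 in other effector cells and -7.20 in naive cells relative to Th2 cells in the authors' deposited tables. Lists of chemokine receptor and homing genes and of activation and tissue genes had 2 members among 243 regions (0.823%) and 10 among 306 (3.27%). The last included 3 at Zfp36l2, 2 at Cd44 and 1 each at Ahr, Cd27, Dusp1, Havcr2 and Lgals3.

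Lists of genes that mark the other T helper populations stand beside that 2.39% as well. The Treg list had 0 members among 205 regions, with 0 at Foxp3, Ikzf2 and Ctla4. The naive list had 3 among 422 (0.711%), at Bcl2, Foxp1 and S1pr1, and 0 at Ccr7, Tcf7 and Lef1. The rule drops every region listed in a comparison among naive, Treg and other effector cells. Low counts on the Treg and naive lists are thus favoured by the rule, and nothing is read from them. The Th1 and Th17 list had 3 among 126 (2.38%), about the share of all regions, at Tbx21, Il22 and Il1r1. Tbx21 encodes the lineage factor of Th1 cells, and its member lay at -5.16 in Treg cells, -5.16 in other effector cells and -5.33 in naive cells relative to Th2 cells in the authors' deposited tables. Housekeeping genes had 0 members among 52 regions. Over all 18 lists, 77 of 2941 regions were members (2.62%), close to the 2.39% of all regions, and 50 of 325 genes had one.

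Some members lay at genes better known from other cell types than T cells. Of the 9 myeloid markers, Cebpb and Csf1r had 1 member each, so 2 of 47 listed regions were members (4.26%). This and the shares below stand beside 2.39% of all merged regions. Lyz2 had no listed region, and Cd68, Itgam, Adgre1, Spi1, Fcer1g and Mrc1 had listed regions but 0 members. Of the 47 regions, 5 were higher in Th2 than in Treg cells, 36 than in other effector cells and 8 than in naive cells. The matching shares of all merged regions were 6.72%, 53.2% and 9.67%. A wider list of 70 myeloid genes, gathered after the members had been seen, had 33 members among 335 regions (9.85%) in 24 genes. Of the 335, 83 were higher in Th2 than in Treg cells, 262 than in other effector cells and 75 than in naive cells. The list was gathered with the members known, so these counts support nothing. Its members' medians in the authors' deposited tables were -5.59 for Treg, -5.96 for other effector and -6.00 for naive cells. Among them were the promoters of Tnfaip2 at -7.08, -8.50 and -8.68, of Plek at -7.39, -7.39 and -7.56, and of Nlrp3 at -5.92, -7.38 and -7.56 for Treg, other effector and naive cells in the authors' deposited tables. The member at the end of Tlr4, which encodes the lipopolysaccharide receptor, lay at -8.07 for both Treg and other effector cells and -8.24 for naive cells in the authors' deposited tables. B cell genes had 0 members among 29 regions, CD8 and natural killer genes 1 among 32 (Klrk1), and eosinophil, mast cell and basophil genes 0 among 18. Epithelial and stromal genes had 2 among 51, and genes of group 2 innate lymphoid cells 2 among 147, at Arg1 and Calca. Whether cells of another type in the sorted Th2 samples contributed to these regions was not tested.

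**Figure D4:**
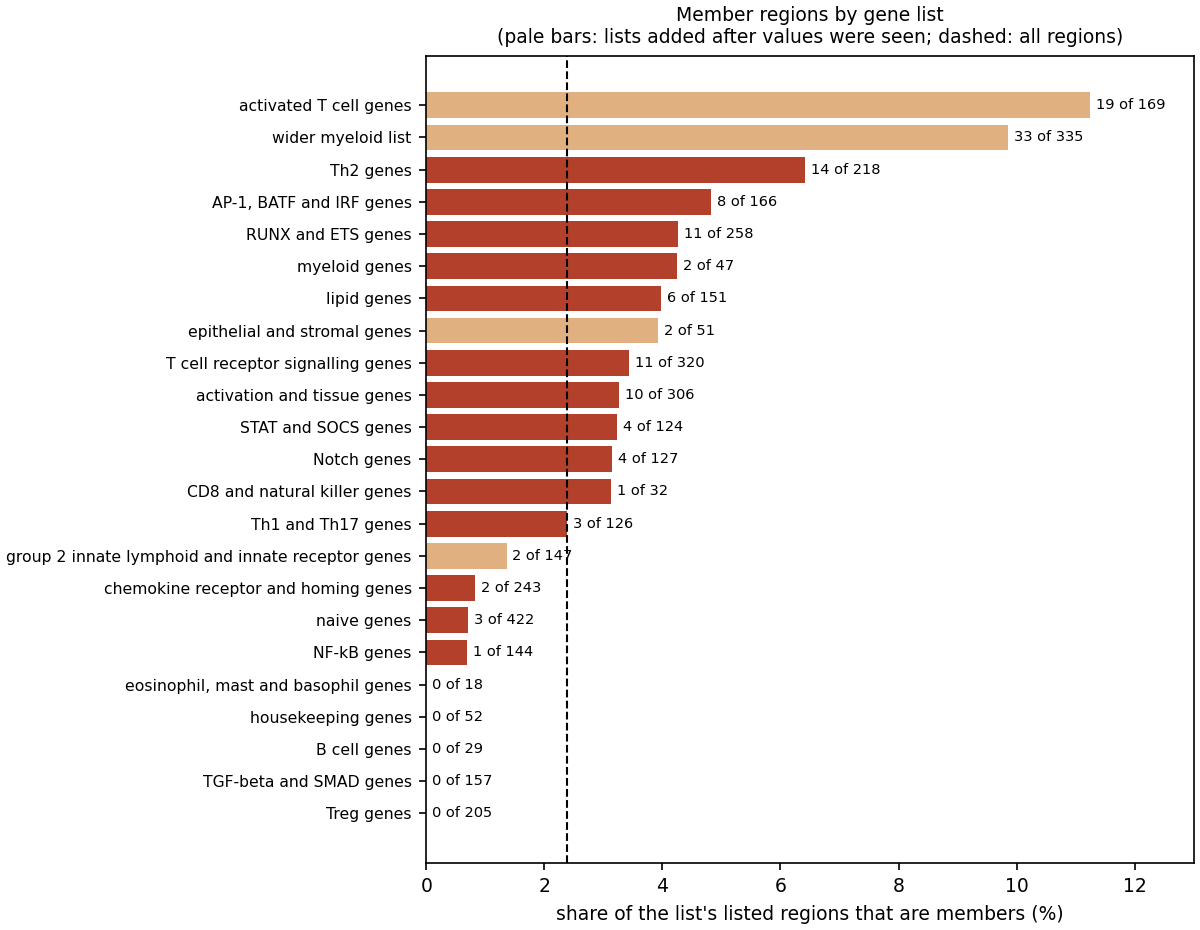
Share of each gene list's listed regions that were members (horizontal axis, percent), with the counts beside the bars. Dark bars are the 18 lists drawn up with earlier results known, pale bars the 5 lists added after values were seen, and the dashed line marks 2.39%, the share over all merged regions. The Th2 list stands at 6.42%, and the Treg list at 0. The rule drops regions listed among naive, Treg and other effector cells, so low shares of the Treg and naive lists are not read as a result.

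Most members lay away from gene ends. Of the 1257, 125 had their midpoint within 1 kb of an end of a protein-coding gene (9.94%, exact 95% interval 8.35% to 11.7%), against 4.88% of regions that set Treg cells apart, 3.88% of those that set naive cells apart and 21.9% of all merged regions. The members' share thus lay between that of all listed regions and those of the Treg and naive sets, outside the exact 95% intervals of each (3.34% to 6.86% for the Treg set, 2.94% to 5.02% for the naive set and 21.5% to 22.3% for all). The sets most like the members had shares close to theirs, 11.5% of the 2015 regions listed only against Treg and other effector cells and 10.7% of the 2090 listed only against naive and other effector cells. Promoter windows gave the same order, with 8.19% of members, 3.31% of the Treg set, 2.40% of the naive set and 17.2% of all, beside 9.28% of the 2015 regions and 8.37% of the 2090. Inside genes lay 55.2% of members, against 55.6% of the Treg set, 58.0% of the naive set and 60.2% of all. Over 100 kb from any gene end and outside genes lay 7.56% of members, against 5.12% of all regions. Regions are not independent samples, so the intervals describe counting error and no test was made.

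**Figure D5:**
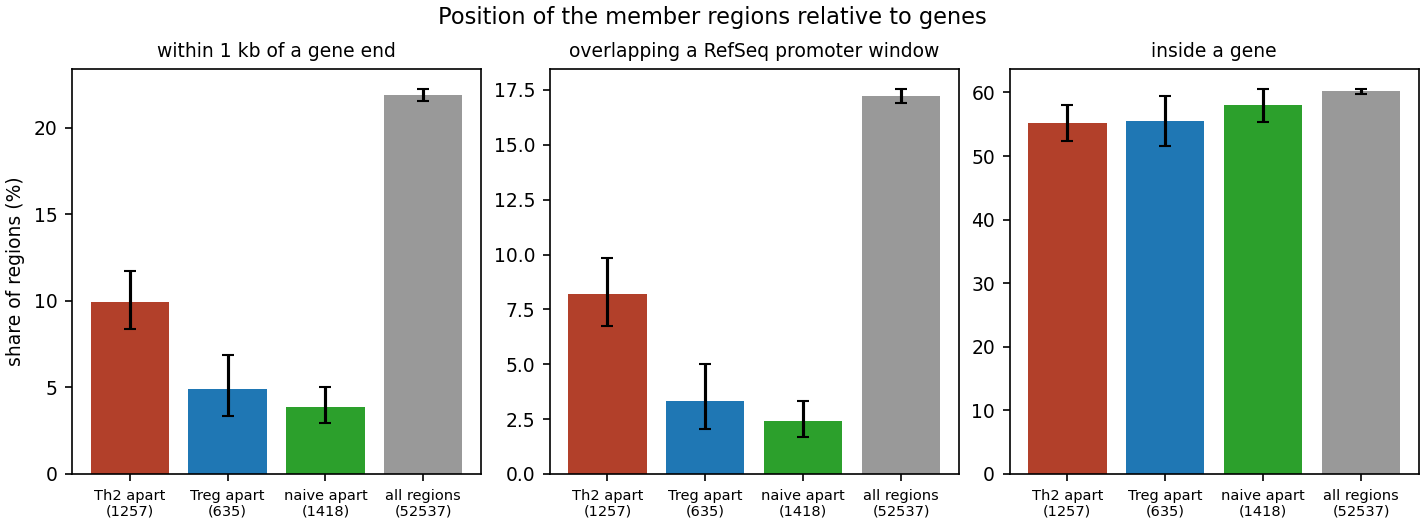
Share of regions (vertical axis, percent) within 1 kb of a gene end, overlapping a RefSeq promoter window, or inside a gene, for the 1257 members, the regions that set Treg and naive cells apart and all merged regions. Error bars are exact 95% binomial intervals. Members stand at 9.94%, 8.19% and 55.2%, between the other 2 sets and all regions in the first 2 panels.

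Members had a median width of 431 bases, with quartiles of 314 and 610, against 543 in the Treg set, 614 in the naive set and 497 over all merged regions. The widest members had folds further from 0 than the narrowest. The 415 widest, of 548 to 1944 bases, had medians in the authors' deposited tables of -5.95 for Treg, -6.49 for other effector and -6.41 for naive cells relative to Th2 cells. The 419 narrowest, of 150 to 351 bases, had -5.66, -5.95 and -5.82 for Treg, other effector and naive cells in the authors' deposited tables. The 423 members between them in width had -5.65, -6.18 and -6.01 for the same populations in the authors' deposited tables. For Treg cells these were no further from 0 than the narrowest.

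Members were found on each of chromosomes 1 to 19 and X, from 1.00% of listed regions on chromosome X (11 of 1098) to 3.23% on chromosome 16 (60 of 1857). A single member lay on an unplaced sequence and had the largest folds of all, -11.32 in Treg cells, -11.32 in other effector cells and -11.49 in naive cells relative to Th2 cells in the authors' deposited tables. Whether reads map there uniquely was not examined. The next largest were regions inside Gse1, Itpr1 and Hivep3, with folds of -8.82, -8.76 and -8.73 for Treg relative to Th2 cells in the authors' deposited tables. Gse1 encodes a subunit of a histone-modifying corepressor and Hivep3 a zinc finger protein that binds kappa B motifs.

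Some members lay near one another along the chromosomes. Within 100 kb of another member were 528 of 1257 (42.0%), and 64 groups of 3 or more held 226 members. The same share was 32.3% in the Treg set of 635 regions and 44.7% in the naive set of 1418. Such a share depends on the number of regions in a set, and its order here is that of the set sizes. It is therefore not read as a trait of the members. After the 7 beside Rbpj, the groups with most members had 6 members each, inside Itpr1, around Sulf2 and across the phospholipid scramblase genes Plscr1, Plscr2 and Plscr4. A group of 5 spanned the SLAM receptor genes Cd244a, Ly9 and Slamf7 together with F11r, at chr1:171451002-171637538. At Cd244a, Ly9 and Slamf7 naive cells lay nearer to Th2 cells than Treg and other effector cells did, with -5.16, -5.00 and -4.58 for naive relative to Th2 cells in the authors' deposited tables. Some genes held regions of more than 1 set. Of the 936 genes with a member, 56 also held a region of the Treg set (5.98% of the 936 and 11.5% of that set's 486 genes), and 112 held a region of the naive set (12.0% of the 936 and 11.5% of 975).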

How the data were processed

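Members, gene lists and named genes were chosen with earlier results of these data known. ATAC-seq libraries came from 3 replicates of 1000 cells per population and were amplified over 16 cycles and read as pairs of 125 bases, per the labels. The authors deposited DiffBind results, per the submitters' processing notes; the sources used here state no aligner, peak caller, threshold or normalization. The deposited fold was read as log2, the scale of that tool, and its sign as first-named minus second-named population, from marker genes. Folds also summed over tables at 4 regions (largest residual 0). Such sums bear on whether signs match between tables, but not on their direction or the log base.

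The notes name build mm9, but 21.9% of regions lay within 1 kb of a GRCm38.p6 gene end, against 5.75% and 5.69% after shifts of 100000 bases, and 11 unplaced sequences carry GRCm38-type names. Coordinates are therefore 1-based GRCm38. Rows were merged in Python 3.11.15 (pandas 2.3.3) and recounted with bedtools 2.31.1, which gave the same 52537 regions and 1257 members. Regions were assigned to the RefSeq protein-coding gene holding their midpoint, otherwise to the nearest end within 100000 bases, which assigned 1162 members. RefSeq promoter entries matched 753 of 936 genes. The gene table gives no strand, exons or UTRs. Intervals are exact 95% binomial intervals. The merging was tested on simulated data.

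Named were 16 fixed genes of the 4 populations, genes with most members, those of the largest and smallest folds, list genes with a member, gene-end members with large folds, and genes of clusters. Genes of promoters and of the 5 added lists fall outside this rule and were chosen after values were seen. Alternatives changed merging, the fold threshold, the exclusion of other lists, chromosomes and gene distance.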

Additional observations from a re-analysis of the deposited data

How the results depend on the processing

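Of 73 values recomputed under other settings, 62 stayed within their limits and 11 moved. The limit for counts was a change by a factor of 1.5. Identical bounds entered under more than 1 setting with the same values, so the 62 are not all separate. No median fold changed sign, but no region was listed as higher in other effector than in Th2 cells, so that sign was fixed in advance. Keeping rows at or above the median absolute fold of their table left 652 members, all 652 higher in Th2 cells, in 521 genes, with medians in the authors' deposited tables of -6.40 for Treg, -6.51 for other effector and -6.61 for naive cells and a median width of 461.5 bases. Median width was 414 bases with only identical rows merged and 481.5 with rows within 250 bases merged. With 2 kb in place of 1 kb, 14.0% of members lay near a gene end. With genes assigned within 10 kb, 31 list genes had a member, against 50. Ignoring the other 3 tables gave 1266 members, 1262 of them higher in Th2 cells. These additions were chosen after seeing the data: the 1001 members with identical bounds, and leaving out genes of the wider myeloid list, which left 1224 members in 912 genes. No paired analysis was possible because the lists hold no replicate values, and leaving out a replicate was not possible for the same reason. Depth is unknown, so a region absent from a list cannot be read as equal between populations.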

Other observations

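Members at genes outside the comparisons above included a few with large folds at gene ends. The end of Anxa5, which encodes an annexin, held a member at -7.61 in Treg cells, -7.60 in other effector cells and -7.77 in naive cells relative to Th2 cells in the authors' deposited tables. Tbc1d9, Dusp16 and Cebpd, which encode a TBC domain protein, a MAP kinase phosphatase and a C/EBP factor, held members at their ends with -7.61, -7.47 and -7.79 for Treg relative to Th2 cells in the authors' deposited tables. The end of Slfn2, a Schlafen gene of lymphocytes, held 1 at -8.11 for both Treg and other effector cells and -8.28 for naive cells in the authors' deposited tables.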
